A study of Mus musculus with 12 samples.

Results

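Colony-stimulating factors are secreted cytokines that drive the formation, survival and activation of myeloid cells, and many tumour cells make them. Csf1 (M-CSF) and Il34 are separate ligands of the receptor tyrosine kinase Csf1r, Csf2 (GM-CSF) and Csf3 (G-CSF) act through cytokine receptors that signal by JAK kinases and STAT factors, and Mif is an abundant cytokine that binds Cd74, the invariant chain of MHC class II, together with Cd44. The mRNAs of several cytokines of this kind carry AU-rich elements in the 3′ UTR, which RNA-binding proteins use to mark them for decay.

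The 7 genes described here, Csf1, Il34, Csf2, Csf3, Mif, Csf1r and Cd74, were chosen by symbol from the 52550 genes of the expression tables, with the pattern of their levels across these samples already known. Their levels and differences are therefore given as a description, without a test. The samples were 12 RNA-seq libraries of the mouse mammary cancer cell lines D2A1 and D2.OR, each cultured in 2D on plastic or in 3D on Matrigel, a basement membrane gel, with 3 replicates in each of the 4 groups. Both lines come from the D2 hyperplastic alveolar nodule, and in 3D D2A1 is used as a line that goes on proliferating and D2.OR as a line that becomes dormant. No genetic change was made in any group. Each line stands for 1 tumour, so that a difference between lines cannot be told apart from a difference between these 2 tumours. Wells were pooled to obtain enough RNA, cells were cultured for a week, and the 3D medium was DMEM/F-12 low in horse serum, with hydrocortisone, cholera toxin, insulin and antibiotics added. Which medium the 2D cells of these libraries received could not be settled from the sources used here.

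The libraries held 47589611 to 73325069 expected counts, with a median of 61747126. Replicate numbers are batches in the labels, each on a sequencing lane of its own, and batch 1 stood apart. The labels do not say whether a batch also shared its culture or harvest. In batch 1 the 2D and 3D libraries of one line resembled each other most (Pearson's r of log2 CPM across genes, which are not independent replicates, 0.9888 in D2A1 and 0.9811 in D2.OR), whereas in batches 2 and 3 the closest library was always the other one of the same group. In D2A1, 1282 genes differed by over 2-fold between 3D and 2D in batch 1, against 2974 in batch 2 and 3617 in batch 3. In D2.OR batch 1 did not stand apart by that count, with 1867 genes in batch 1, 1999 in batch 2 and 1924 in batch 3. The culture labels of batch 1 were taken as given, without an independent check, and each 3D against 2D value that includes it rests on them. Values without batch 1 are therefore given beside the fitted differences of the chosen genes between cultures. They are also given for those of the named pathway genes whose interaction they moved past the threshold. The labelled breast cancer cells were checked against lineage markers. Krt8, a luminal keratin, was at 723.8 to 1047 CPM in D2.OR 2D and 216.8 to 538.3 CPM in D2.OR 3D, but at 0.8128 to 2.24 CPM in D2A1, which also had at most 0.1843 CPM of Epcam and 0.445 CPM of Cdh1. Krt18, the partner keratin of Krt8, was present in D2A1 too, at 143.2 to 210.6 CPM in 2D and 72.24 to 158.6 CPM in 3D. In D2.OR, Epcam was at 1.786 to 6.479 CPM and Cdh1 at 23.74 to 496.3 CPM. Krt14 was at 0.5501 to 5.039 CPM in D2.OR and at most 0.1081 CPM in D2A1. Krt5 reached at most 0.03162 CPM in either line. Of the fibroblast and endothelial markers, Vim, an intermediate filament of mesenchymal cells, was at 2445 to 4701 CPM in D2.OR and 580.6 to 2530 CPM in D2A1, Pdgfra at 184.6 to 486.1 CPM in D2.OR and 37.38 to 82.78 CPM in D2A1, and Col1a1, a fibrillar collagen, at 25.47 to 193.5 CPM in D2.OR and at most 10.28 CPM in D2A1. Pdgfrb and Col1a2 overlapped between lines. Pdgfrb was at 93.06 to 411.2 CPM in D2.OR and 4.543 to 171.3 CPM in D2A1. Col1a2 was at 2.254 to 13.86 CPM in D2.OR and 0.3969 to 6.736 CPM in D2A1. The endothelial genes Pecam1 and Cdh5 reached 0.3164 and 0.04742 CPM. Of 12 macrophage and leukocyte markers, 2 were over 1 CPM in every library of each group, Cd14 at 6.283 to 165.8 CPM and Cd68, a lysosomal protein abundant in macrophages, at 1.434 to 19.11 CPM. Ptprc reached only 0.1418 CPM, Adgre1 0.06323 CPM and Lyz2 0.04742 CPM, and Tyrobp was at 0.

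AU-rich pentamers in the 3′ UTR set these transcripts apart in sequence. Csf2 held 9 copies of ATTTA in 317 bases of 3′ UTR, Csf3 held 6 in 669 bases, Csf1 held 4 in 2111 bases, Csf1r held 3 in 1669 bases and Il34 held 1 in 605 bases. Mif, with 124 bases, and Cd74, with 490 bases, held none. Of 20993 protein-coding genes with a 3′ UTR, 65.2% held at least 1 copy, 21.6% at least 5 and 10.5% at least 8, counted on the sense strand of each gene's longest 3′ UTR in GENCODE M21 with overlapping copies included. The densest 30 bases of 3 of the ligands are shown in DNA letters, 5′ to 3′ on the gene's strand, with ATTTA in capitals, because Zfp36l1, described further on, is known to bind such stretches. They lie in the 3′ UTR of each gene in GRCm38, at chr11:54247329-54247358 on the minus strand for Csf2, chr11:98702984-98703013 on the plus strand for Csf3 and chr3:107741109-107741138 on the minus strand for Csf1.
Csf2: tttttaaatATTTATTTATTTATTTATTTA
Csf3: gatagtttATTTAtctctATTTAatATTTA
Csf1: tttatataaggtcATTTAaatatctATTTA
The Csf2 window held 5 copies run together, that of Csf3 held 3 and that of Csf1 held 2. A match is a description of the letters and not a measured decay element.

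In TPM, which corrects for transcript length and so allows genes to be compared, Mif was by far the most abundant of the 7 genes in every library, at 954.35 to 2128.36 TPM. Csf1 was at 43.59 to 151.92 TPM and Il34 at 5.99 to 70.31 TPM. Cd74 stayed at 0.44 to 4.79 TPM, Csf2 at 0 to 0.36 TPM and Csf1r at 0.01 to 0.53 TPM. Csf3 ran from 0.03 to 98.09 TPM, the widest span as a ratio among the genes above 0 in every library. It stood above Csf1 in replicates 2 and 3 of D2A1 3D. The ligands of Csf1r were thus measured well in both lines while the receptor was near 0. In such bulk samples, fewer cells making an mRNA and less of it per cell cannot be told apart.

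**Figure D1:**
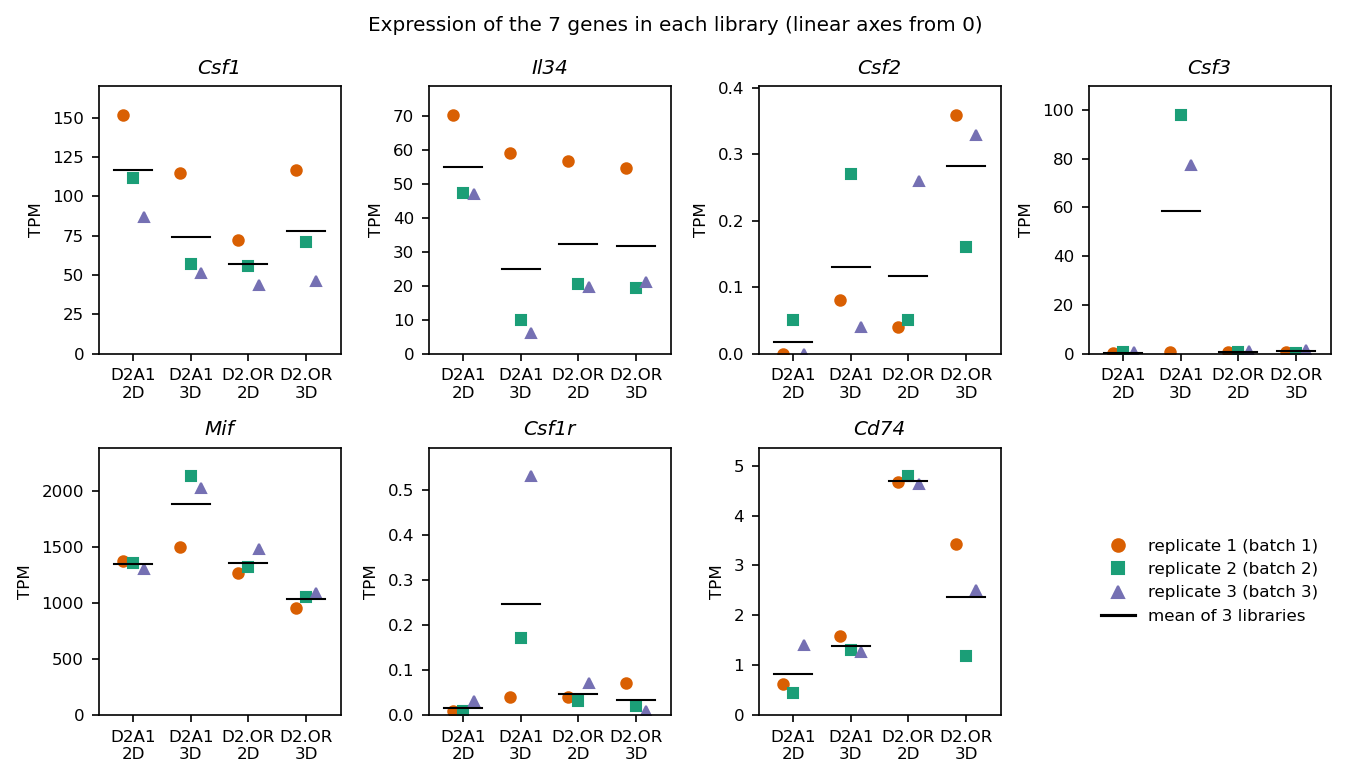
Level of each of the 7 genes in TPM (linear axes from 0, a scale of its own per gene) in the 4 groups, with 1 point per library marked by batch and a line at the mean of the 3 libraries. Csf3 was high in 2 of the 3 D2A1 3D libraries only, Il34 was highest in batch 1 in each group, and the Mif values of D2A1 3D lay above those of the other groups.

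Csf1, the main growth factor of macrophages, lies at chr3:107741048-107760469 (GRCm38, minus strand; ENSMUSG00000014599.10). Its level was 151.92, 111.51 and 86.71 TPM in replicates 1, 2 and 3 of D2A1 2D, 114.74, 56.74 and 51.51 TPM in D2A1 3D, 71.95, 55.9 and 43.59 TPM in D2.OR 2D and 116.9, 70.62 and 46.06 TPM in D2.OR 3D. Batch 1 was the highest library in all 4 groups, as it was for Il34 and for 9.93% of the 16823 genes tested. The means were 116.7 ± 32.91 TPM in D2A1 2D, 77.86 ± 35.97 TPM in D2.OR 3D, 74.33 ± 35.09 TPM in D2A1 3D and 57.15 ± 14.22 TPM in D2.OR 2D (SD, n = 3). The first of these stood above the second by little more than the SD, and the other neighbours in the order differed by less than the larger SD of each pair, which includes the rise in batch 1. Within each batch, D2.OR 2D lay below D2A1 3D. In 2D, Csf1 was lower in D2.OR than in D2A1 in each batch, with a fitted log2-fold change of -0.92 (SE 0.11), and in 3D the lines were close, at 0.04 (SE 0.11). From 2D to 3D the fitted difference was -0.65 (SE 0.11) in D2A1 and 0.31 (SE 0.11) in D2.OR, or -0.74 (SE 0.11) and 0.19 (SE 0.11) without batch 1. The within-batch differences were -0.47, -0.81 and -0.66 in D2A1 and 0.56, 0.33 and 0.04 in D2.OR, so that the lines moved in opposite directions in every batch, by very little in batch 3 of D2.OR.

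Il34, the second ligand of Csf1r, lies at chr8:110741829-110805924 (minus strand; ENSMUSG00000031750.15). It was at 70.31, 47.26 and 46.88 TPM in D2A1 2D, 59.01, 9.83 and 5.99 TPM in D2A1 3D, 56.76, 20.47 and 19.47 TPM in D2.OR 2D and 54.71, 19.19 and 21.08 TPM in D2.OR 3D. The batch 1 libraries formed a narrow band in all groups, and the low values of D2A1 3D were those of batches 2 and 3. The fitted log2-fold change from 2D to 3D in D2A1 was -1.68 (SE 0.42), and -2.52 (SE 0.20) without batch 1, while batch 1 alone gave -0.26. In D2.OR it was -0.12 (SE 0.39), or -0.06 (SE 0.18) without batch 1. Between lines, Il34 was lower in D2.OR by -0.80 (SE 0.40) in 2D and higher by 0.76 (SE 0.40) in 3D, and the value in 3D was 1.46 (SE 0.19) without batch 1. With batch left out of the model, the 3D value was 0.34 and the D2A1 change from 2D to 3D was -1.12. Over all alternatives the value in 2D ran from -1.15 to -0.54. The antisense genes that overlap Il34, Gm15894 and Gm15895, reached at most 0.11 and 1.06 TPM.

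Csf2, which directs granulocyte and macrophage formation, was the gene with the fewest reads, 0 to 8 per library, and the only one of the 7 that did not pass the filter on low counts. The reads were 0, 1 and 0 in D2A1 2D, 2, 7 and 1 in D2A1 3D, 1, 1 and 5 in D2.OR 2D and 8, 4 and 8 in D2.OR 3D. At this depth no fold is given for it.

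Csf3, the growth factor of neutrophils, lies at chr11:98701263-98703629 (plus strand; ENSMUSG00000038067.2). It was at 0.03, 0.73 and 0.49 TPM in D2A1 2D and at 0.52, 98.09 and 77.51 TPM in D2A1 3D. In D2.OR it was at 0.6, 0.58 and 1.05 TPM in 2D and 0.62, 0.35 and 1.53 TPM in 3D. Only replicates 2 and 3 of D2A1 3D were high, and replicate 1 of that group lay within the range of the other groups. These values rest on 1, 32 and 20 reads in D2A1 2D and on 27, 5029 and 4152 reads in D2A1 3D. Without batch 1, the fitted log2-fold change from 2D to 3D was 7.31 (SE 0.55) in D2A1 and 0.17 (SE 0.61) in D2.OR, and D2.OR lay below D2A1 in 3D by -6.63 (SE 0.52). With batch 1 the values were 6.89 (SE 1.43) in D2A1, -0.01 in D2.OR and -5.54 (SE 1.41) between lines in 3D. The D2.OR value ran from -1.02 without replicate 1 of D2.OR 3D to 1.16 without replicate 1 of D2.OR 2D. The batch 1 libraries of D2A1 gave a difference of 2.97 that rests on a single read in 2D. Cd14, a marker of the macrophage list that is also made by other cells, stood at 25.16, 165.8 and 150.1 CPM in D2A1 3D and at most 45.56 CPM elsewhere, which raised the summed level of that list to between 31.59 and 170.1 CPM in D2A1 3D, against 19.06 to 52.07 CPM in D2A1 2D, 14.88 to 44.78 CPM in D2.OR 2D and 9.565 to 48.65 CPM in D2.OR 3D. Its part in the Csf3 result was not tested.

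**Figure D2:**
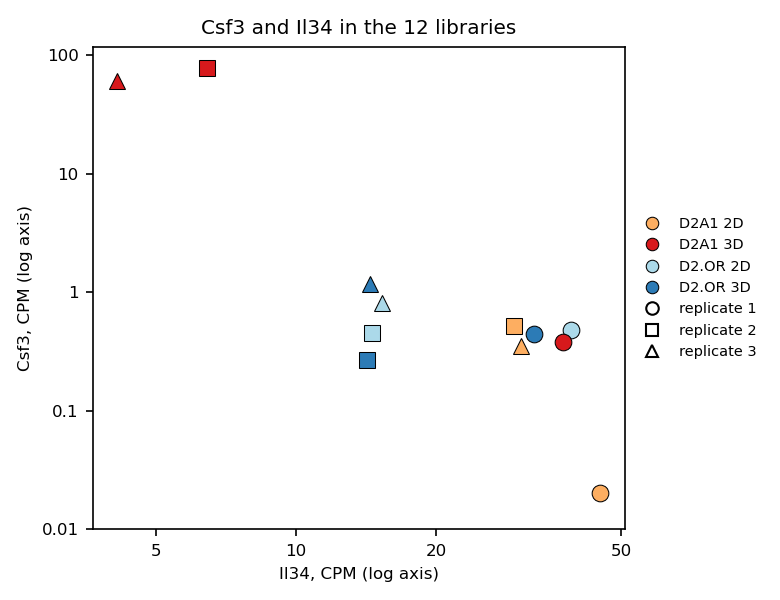
Csf3 against Il34 in TMM-normalised CPM (both axes log) in the 12 libraries, coloured by group and marked by replicate. Replicates 2 and 3 of D2A1 3D stand alone, with 77.67 and 61.04 CPM of Csf3 and 6.425 and 4.131 CPM of Il34, while replicate 1 of that group lies beside the batch 1 libraries of D2.OR.

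The libraries with much Csf3 were also those with little Il34. Because 2 libraries stand apart from the other 10, no correlation over the 12 is given for Csf3.

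Mif lies at chr10:75859353-75860240 (minus strand; ENSMUSG00000033307.7). It was at 1371.63, 1353.17 and 1299.45 TPM in D2A1 2D, 1493.19, 2128.36 and 2022.78 TPM in D2A1 3D, 1266.2, 1322.56 and 1481.9 TPM in D2.OR 2D and 954.35, 1051 and 1086.92 TPM in D2.OR 3D. The order was D2A1 3D, then D2.OR 2D and D2A1 2D, which did not differ in TPM beyond their spread (1357 ± 111.9 and 1341 ± 37.5 TPM, SD, n = 3), then D2.OR 3D. In CPM, replicate 1 of D2A1 3D, at 330.2, lay below replicate 3 of D2.OR 2D, at 337.2. From 2D to 3D the fitted log2-fold change was 0.61 (SE 0.13) in D2A1 and -0.46 (SE 0.13) in D2.OR, and without batch 1 it was 0.82 (SE 0.09) and -0.43 (SE 0.09). The within-batch differences were 0.17, 0.83 and 0.80 in D2A1 and -0.54, -0.37 and -0.48 in D2.OR, opposite in direction in every batch. Mif in 3D was lower in D2.OR by -0.91 (SE 0.13) on the log2 scale. In 2D the value was 0.15 (SE 0.13), and it became -0.01 when libraries were scaled by their totals alone, a scaling that shifted the median of all genes by -0.17. Expected counts of Mif were whole in 0 of 12 libraries, so some of its reads were shared with other loci. Its pseudogene Mif-ps3 reached 0.19 TPM, and 2 more pseudogenes were at 0.

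Of the receptors, Csf1r was near the limit of detection. It had 1, 2 and 5 reads in D2A1 2D, 7, 31 and 90 in D2A1 3D, 6, 5 and 9 in D2.OR 2D and 9, 3 and 2 in D2.OR 3D, or at most 0.53 TPM. The 2 libraries with most Csf1r were the 2 with high Csf3. The D2A1 2D libraries hold too few reads for a fold. The 3′ end of Csf1r overlaps Hmgxb3 on the opposite strand over 871 bases, Hmgxb3 stood at 15.15 to 24.05 TPM, and expected counts of Csf1r were whole in 6 of 12 libraries. Whether the libraries kept the strand is not given in the sources used here, so reads of the overlap cannot be told apart.

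Cd74, which chaperones MHC class II and binds Mif at the surface, was at 0.63, 0.44 and 1.41 TPM in D2A1 2D, 1.58, 1.3 and 1.26 TPM in D2A1 3D, 4.67, 4.79 and 4.63 TPM in D2.OR 2D and 3.42, 1.18 and 2.51 TPM in D2.OR 3D. It was highest in D2.OR 2D, above every other library. The fitted log2-fold change between lines was 2.74 (SE 0.41) in 2D, or 6.7-fold, and 0.67 (SE 0.38) in 3D. Without batch 1 these were 2.61 (SE 0.46) and 0.42 (SE 0.44), and over all alternatives the 2D value ran from 1.68 to 3.34. The 3D value was 0.32 without replicate 1 of D2.OR 3D. From 2D to 3D it was -1.15 (SE 0.38) in D2.OR and 0.92 (SE 0.41) in D2A1, where the batch 3 difference was -0.01, and without batch 1 it was -1.46 (SE 0.43) and 0.73 (SE 0.47). The D2A1 values rest on 16 to 69 reads per library.

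Over these genes, the CPM ranges of the groups did not overlap between lines in 2D for Csf1, Mif and Cd74, in a comparison where 53.2% of all tested genes did not overlap, and between lines in 3D for Mif (60.1% of all genes). Between 3D and 2D they did not overlap for Mif and Cd74 in D2.OR (22.7% of all genes) and for Mif and Csf1r in D2A1 (26.0% of all genes). For Csf1r this rests on 5 reads in D2A1 2D replicate 3 against 7 reads in D2A1 3D replicate 1. The choice of genes used these same values, so nothing further is read from these overlaps.

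**Figure D3:**
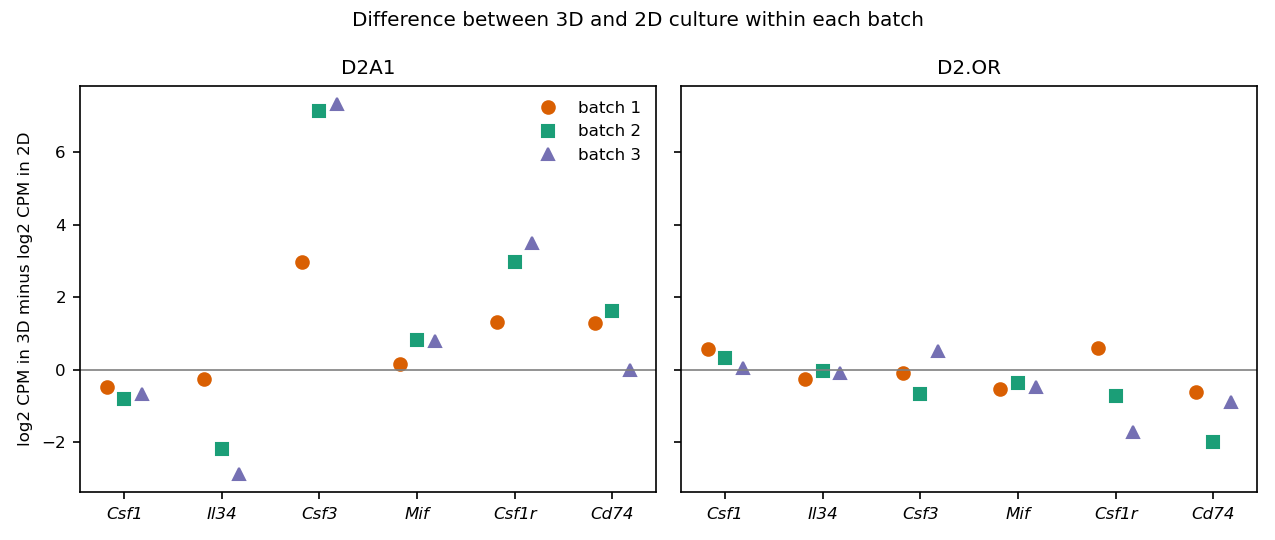
Difference in log2 CPM (prior count of 2) between the 3D and the 2D library of the same batch, for the 6 genes that passed the filter, in D2A1 (left) and D2.OR (right), with 1 point per batch. In D2A1 the batch 1 points of Csf3 and Il34 (2.97 and -0.26) lie nearer 0 than those of batches 2 and 3, and Mif and Csf1 take opposite signs in the 2 lines.

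The genes whose log2 CPM was most like that of each of these genes over the 12 libraries, among 10670 genes of at least 5 CPM on average, were Hs6st1, Fuz and Snx8 for Csf1 (Pearson's r 0.938, 0.936 and 0.934) and Pdzd7, Itgbl1 and Atp6v1d for Il34 (0.962, 0.954 and 0.950). For Mif they were Cby1, Pfdn4 and Gm15772 (0.967, 0.941 and 0.938) and for Cd74 Arhgef5, Slc45a4 and Bcr (0.959, 0.939 and 0.924). These libraries share lines and batches, so the values describe likeness of pattern alone. By the same measure Gsta1, Smox and Ehd1 came first for Csf3, and Csf3, Uqcc2 and Srsf9 for Csf1r, an order that the 2 libraries with high Csf3 can set. Gsta1, a glutathione transferase, stood at 10.03, 59.14 and 76.68 CPM in D2A1 3D and at 2.832 to 13.82 CPM in the other groups, and so was also high in replicates 2 and 3.

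The other genes of the pathway were tested with edgeR's quasi-likelihood test, with Benjamini-Hochberg adjustment over all 16823 genes and a threshold of 0.05. Of 75 listed ligands, receptors, processing enzymes, signalling proteins, inhibitors, transcription factors and decay factors, 57 passed the filter. Between lines in 2D, 33 of the 57 differed, against 49.8% of all genes tested. Of these, 24 were higher in D2.OR (25.4% of all genes) and 9 lower (24.4%), a split of 18 to 11 when libraries were scaled by totals alone. In 3D, 38 of the 57 differed (53.8% of all genes), with 25 higher in D2.OR (27.7%) and 13 lower (26.1%). The median log2-fold change of the 57 was 0.23 in 2D and 0.19 in 3D. The counts were 19 and 21 without batch 2, in a fit where 4227 and 5273 of 17005 genes differed.

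Receptors of the other colony-stimulating factors were scarce, and 8 of the 12 receptor genes, among them Csf2ra, Csf2rb and Csf3r, did not pass the filter. Il3ra, the alpha chain of the interleukin-3 receptor, was higher in D2.OR in both cultures (edgeR adjusted p = 8.4e-05 in 2D and 7.24e-05 in 3D). It had 0 reads in every D2A1 3D library and at most 1 in D2A1 2D, and in 3D D2.OR was at least 18.4-fold higher, taking 3 reads per D2A1 library as the floor. Epor, the erythropoietin receptor, was higher in D2.OR in 2D by 1.49 (SE 0.29) and lower in 3D by -0.96 (SE 0.28) on the log2 scale, with adjusted p = 0.0797 for the interaction. The 3D call of Epor was lost under 7 of 22 alternatives, over which its value ran from -1.26 to -0.66. Sdc1, a heparan sulfate proteoglycan that binds Il34, was higher in D2.OR by 1.45 (SE 0.21) in 2D and 0.81 (SE 0.20) in 3D, with a 3D call lost under 2 of 22 alternatives. Of the ligands, Thpo, the platelet growth factor, was higher in D2.OR by 3.30 in both cultures at 0.8367 to 2.309 CPM, and Kitl, the ligand of Kit, was higher in 3D by 1.88 (SE 0.56, edgeR adjusted p = 0.0185), with -0.49 (SE 0.55, adjusted p = 0.486) in 2D and an interaction of adjusted p = 0.189. The 3D call of Kitl was lost under 6 of 22 alternatives, among them leaving out replicate 2 or replicate 3 of D2A1 3D or replicate 2 of D2.OR 3D, and its value was 2.57 without replicate 1 of D2A1 3D. The 2D difference of Kitl passed the threshold under 2 alternatives, over all of which it ran from -1.09 to 0.21. Flt3l did not pass the threshold in either culture (-0.41 and -0.26, SE 0.29 each), but its 2D difference did so under 2 of 22 alternatives, with -0.84 without batch 1.

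Among the 7 partners of Mif, 5 were tested, of which 3 differed in 2D and 5 in 3D, against 49.8% and 53.8% of all genes. Its homolog Ddt was higher in D2.OR by 2.03 (SE 0.23) in both cultures, and Cd44, which signals with Cd74, by 1.25 (SE 0.17) in 2D and 1.19 (SE 0.17) in 3D. Aifm1, a mitochondrial flavoprotein that acts with Mif in a form of cell death, was lower by -0.82 and -0.84 (SE 0.11 each). Cxcr2 and Cxcr4 did not pass the filter. Of the 9 genes of Cd74 processing and MHC class II, 5 were tested. In each culture 4 differed, in both directions, against the same shares of all genes. Sppl2a, the protease that cleaves the membrane stub of Cd74, was higher in D2.OR by 1.02 and 0.64 (SE 0.10 each). Ciita, the activator of MHC class II genes, was lower by -3.32 (SE 0.44) and -2.67 (SE 0.41), at 0.05976 to 0.2818 CPM in D2.OR and 0.5881 to 1.461 CPM in D2A1. Ctss, another protease of the invariant chain, had 14 to 65 reads in D2.OR and 0 to 2 in D2A1. The MHC class II genes H2-Aa, H2-Ab1 and H2-Eb1 did not pass the filter.

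In signalling, 7 of 13 genes differed between lines in each culture, against 49.8% of all genes in 2D and 53.8% in 3D. The same shares apply to the counts of inhibitors and transcription factors that follow. Jak1 and Jak2, kinases of cytokine receptors, were higher in D2.OR in both cultures, Jak1 by 0.75 and 0.85 (SE 0.09 each) and Jak2 by 1.23 and 1.27 (SE 0.19 each). Pik3cd, a catalytic subunit of PI3K, was lower by -1.15 and -1.70 (SE 0.25 each). Of 8 feedback inhibitors, 5 differed in 2D and 6 in 3D. Socs2, which limits JAK-STAT signals, was higher by 4.65 and 4.75 (SE 0.32 each), from 1.9 to 5.121 CPM in D2A1 to 33.63 to 114.1 CPM in D2.OR, whereas its relative Socs1 was lower by -0.75 and -0.71 (SE 0.15 each). Socs3 passed the threshold in 3D alone (-1.15, SE 0.29, against 0.06, SE 0.29, in 2D), and its difference between cultures in the interaction had adjusted p = 0.192. The 3D call of Socs3 was lost under 2 of 22 alternatives, over which its value ran from -1.43 to -0.71, and the 2D call of Socs1 and the 3D call of Rela under 1 each. Of 9 transcription factors tested, 3 differed in each culture, and the NF-kB subunit Rela was higher in D2.OR by 0.74 and 0.47 (SE 0.09 each). Nfkb1, its partner subunit, was higher in 2D by 0.87 (SE 0.14), with 0.17 (SE 0.14) in 3D, and Cebpa, a factor of myeloid differentiation, was higher in 3D by 2.95 (SE 0.56), with 0.19 (SE 0.52) in 2D. Their interactions had adjusted p = 0.155 and 0.154 by edgeR, and passed the threshold under 4 and 3 of 22 alternatives. Of the 3 proteases that shed or mature membrane proteins such as Csf1 and its receptor, Furin was higher in D2.OR by 0.35 and 0.47 (SE 0.12 each), Adam17 in 2D by 0.31 (SE 0.11), with 0.03 (SE 0.11) in 3D, and Adam10 in 3D by 0.84 (SE 0.14), with 0.32 (SE 0.14) in 2D, which passed the threshold under 2 of 22 alternatives. The 2D calls of Adam17 and Furin were lost under 18 and 14 of 22 alternatives, and the 3D call of Furin under 4.

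The 7 listed factors that bind AU-rich mRNAs or degrade cytokine mRNAs, among them Elavl1, which is known to stabilise AU-rich mRNAs, were all measured. Between lines, 5 of 7 differed in each culture (49.8% of all genes in 2D and 53.8% in 3D). Of these, 4 were higher in D2.OR in each culture (25.4% and 27.7% of all genes). Zfp36l1, a zinc finger protein that binds ATTTA-like elements such as those printed for Csf2 and Csf3, was higher by 2.43 in 2D and 2.59 in 3D (SE 0.18 each), from 42.43 to 65.36 CPM in D2A1 to 246.4 to 425 CPM in D2.OR. Zc3h12a, a ribonuclease that degrades cytokine mRNAs through stem-loops, was higher by 2.89 (SE 0.34) in 2D and 1.21 (SE 0.32) in 3D, with a 3D call lost under 1 alternative. Khsrp was lower by -0.22 and -0.48 (SE 0.08 each), and its 2D call was lost under 15 of 22 alternatives.

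**Figure D4:**
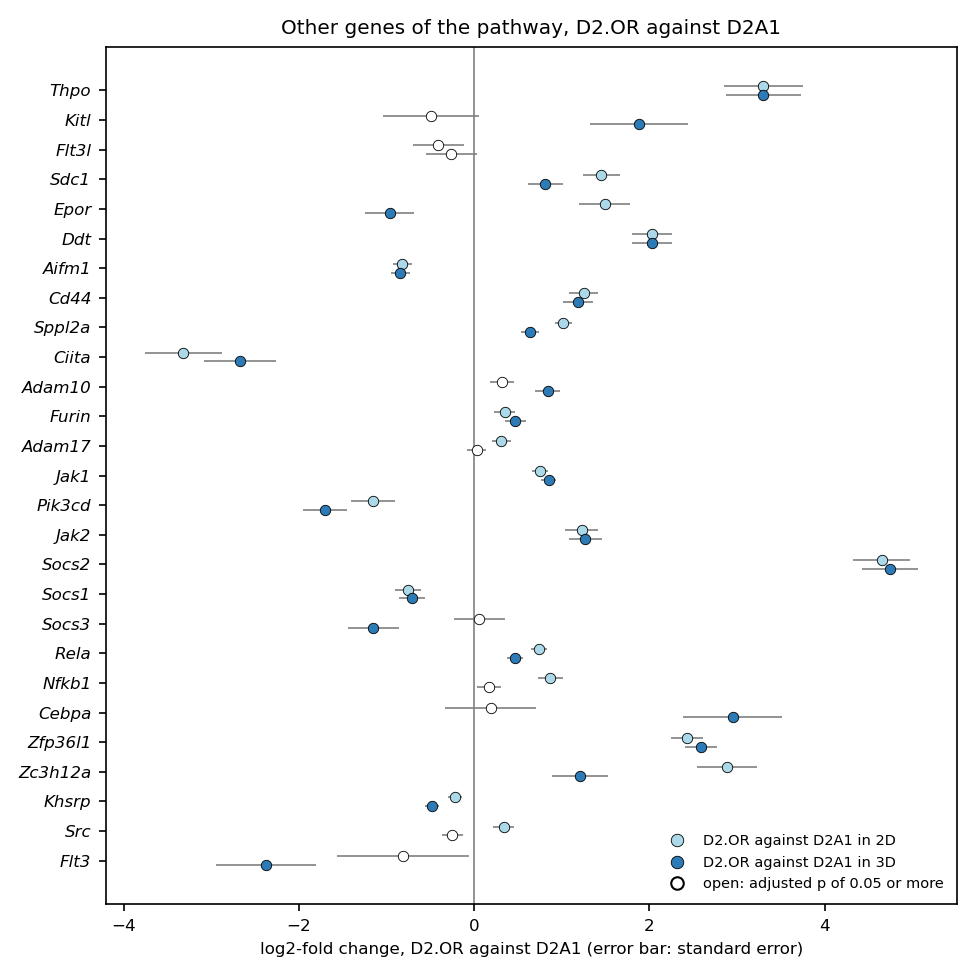
Log2-fold change of D2.OR against D2A1 in 2D (light) and 3D (dark) for the named genes of the pathway, with the standard error; open points have an adjusted p of 0.05 or more, and Il3ra and Ctss are left out because they had at most 2 reads in each D2A1 library. Socs2 (4.65 and 4.75) and Thpo lie farthest to the right and Ciita (-3.32 and -2.67) farthest to the left, while Epor lies on opposite sides in the 2 cultures, with a 3D call lost under 7 of 22 alternatives.

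Between 3D and 2D, few of these genes differed. In D2A1, 2 of the 57 rose (3.48% of all genes differed, 1.37% upwards and 2.12% downwards): Zc3h12a by 2.14 (SE 0.34, edgeR adjusted p = 0.028) and Flt3, a receptor tyrosine kinase related to Csf1r, by 3.03 (SE 0.63, adjusted p = 0.0439). Zc3h12a stood at 9.69, 5.966 and 7.647 CPM in D2A1 2D and 18.01, 45.89 and 39.14 CPM in D2A1 3D, and Flt3 at 0.08092, 0.1788 and 0.1758 CPM and then 0.156, 1.884 and 2.47 CPM. Both were highest in replicates 2 and 3, the libraries that also held most Csf3. The calls were lost under 9 of 22 alternatives for Zc3h12a and 13 for Flt3, whose adjusted p was 0.0959 without the replicate block. Kitl, at 117, 120.4 and 131.9 CPM in 2D and 98.74, 11.27 and 11.45 CPM in 3D, had adjusted p = 0.0505 in D2A1, with a difference of -3.48 without batch 1 that passed the threshold. Without batch 1, 25 genes of the list differed in D2A1, 10 upwards and 15 downwards, in a fit where 6120 of 16842 genes did, whereas none did without batch 2 (0 of 17005 genes overall) or without batch 3 (0 of 16980), where 7 and 5 of the list had an unadjusted p under 0.05.

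In D2.OR, 2 of the 57 fell (1.62% of all genes differed, 0.785% downwards): Src, a kinase recruited by Csf1r, by -0.76 (SE 0.12, edgeR adjusted p = 0.024) and Sppl2a by -0.55 (SE 0.10, adjusted p = 0.0355). Without the replicate block the adjusted p was 0.139 for Src and 0.0583 for Sppl2a, and over all 22 alternatives the calls were lost under 7 for Src and 12 for Sppl2a. Src was at 117.9, 154.2 and 176 CPM in D2.OR 2D and 74.96, 83.91 and 104 CPM in D2.OR 3D. Without batch 1 the count was 8, in a fit where 1412 of 16842 genes differed, and it was 0 without batch 2 (0 of 17005 genes overall) or batch 3 (1 of 16980), with 7 genes of the list at an unadjusted p under 0.05 in each. In the interaction of line and culture, edgeR called none of the 57 genes (0.0238% of all genes, with 0.0178% higher and 0.00594% lower, and 16 of the 57 at an unadjusted p under 0.05), DESeq2 called 6 (953 of 16823 genes overall), and edgeR without batch 1 called 16 (2999 of 16842 overall). Epor had an interaction of -2.44 (SE 0.40). Among the genes named, the interaction passed the threshold without batch 1 for Kitl (3.44), Cebpa (4.13), Epor (-2.92), Zc3h12a (-2.36), Nfkb1 (-1.01), Pik3cd (-0.87), Src (-0.77), Adam10 (0.74) and Zfp36l1 (0.57).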

How the data were processed

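The 12 libraries are RNA-seq of both lines in both cultures. Per the labels and methods, the authors checked reads with FastQC 0.11.4, trimmed them with Trimmomatic 0.32, aligned them to GRCm38 with STAR 2.5.3 and GENCODE M15, and quantified genes with RSEM 1.3.0. The deposited expected counts are estimated, and 10.7 to 11.8% were not whole. The deposited TPM values were corrected for length and depth by the authors. FPKM values, which the authors' RSEM run also gave, were not used. Expected counts were rounded, filtered with filterByExpr (16823 of 52550 genes left) and tested with edgeR 4.0.16 (quasi-likelihood, TMM, R 4.3.3) in a model with group and batch, over all 12 libraries. CPM are TMM-normalised, and the SE of a log2-fold change is its size over the square root of F. Batch is the replicate number and was kept as a block, as the study's model did. Libraries of the same number deviated together (correlation 0.08 to 0.51, median 0.27, over 18 pairs). The p-values measure the spread between these libraries, which the labels do not tie to separate cultures. The 7 genes and all lists were chosen with earlier results of these data known. The text names the 7 genes, in every pathway list the 3 that ranked first by p between lines, and any listed gene called between cultures. limma 3.58.1 and DESeq2 1.42.0 served as alternatives. The edgeR fit was tested on simulated data. It missed a first target for the share of changed genes recovered, the missed genes having low counts or high dispersion, and was then held to limits on bias, sign and false calls instead.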

Additional observations from a re-analysis of the deposited data

Results flagged for a closer look

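Csf1 moved in opposite directions in the lines from 2D to 3D in every batch (down in 3 of 3 in D2A1 and up in 3 of 3 in D2.OR), and the fitted difference of the changes, D2.OR minus D2A1, was 0.96 on the log2 scale (SE 0.16). Mif did the reverse, up in 3 of 3 batches in D2A1 and down in 3 of 3 in D2.OR, with a difference of -1.07 (SE 0.18). The rise of Csf1 in batch 3 of D2.OR was only from 94.1 to 96.9 CPM. Its fitted change in D2.OR was 0.19 (SE 0.11) without batch 1. Opposite signs in every batch were the rule that flagged both genes. Neither gene's difference was tested, since the genes were chosen with these values known.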

How the results depend on the processing

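Depth limits Csf2 and Csf1r, which had at most 8 and 90 reads per library. Of the counts of pathway genes, those between lines stayed within 1.5 times under each alternative other than leaving out a batch: without 1 batch or library they ran from 19 to 37 in 2D and 21 to 45 in 3D. The counts between cultures were small and moved with most settings. Leaving out 1 batch or library gave 0 to 8 genes in D2.OR, 0 to 25 in D2A1 and 0 to 16 in the interaction. Without the replicate block they were 0 in D2.OR and 1 in D2A1, against 20 and 52 of all 16823 genes. DESeq2's likelihood-ratio test gave 6 in D2.OR, 17 in D2A1 and 6 in the interaction, against 1174, 3512 and 953 of all 16823 genes. Without a filter on low counts they were 4, 6 and 1, against 415, 1117 and 96 of 29824. With library totals alone, D2.OR had 1, against 233 of 16823. The causes were not tested. For the 6 chosen genes that passed the filter, a shift was set against the SD of the gene's within-batch differences. That SD is wide where the batches disagree. Of 655 values, 632 moved by less than it and 23 by more. Il34 from 2D to 3D in D2A1, from -2.52 to -1.12 over the alternatives, had 0 counted as moved. Of 3188 values of named pathway genes, 129 lost and 69 gained a call. None changed sign among those where the main or the alternative value passed the threshold. Sign changes without a call on either side were not counted, as for Kitl between lines in 2D (-1.09 to 0.21).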
